A study of Mus musculus with 7 samples.

Results

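When B cells received anti-IgM and BAFF together for 8 h, most genes on which the separate stimuli differed had RNA levels near those with anti-IgM alone. The comparison set the library with both stimuli, gene by gene, against the higher and the lower of the libraries with a single stimulus, with the unstimulated library as the base. It used 4 of the 7 RNA sequencing libraries of the study, each of which was the only library of its condition. All 7 came from wild-type B cells with the C57BL/6 background, described as primary cells. The 4 libraries were unstimulated cells at 0 h, cells with anti-IgM at 8 h, cells with BAFF at 8 h, and cells with anti-IgM and BAFF at 8 h. The other libraries, anti-IgM, BAFF and both at 30 h, were used only to see whether a pattern appeared again later. Age, sex, organ of origin and doses are not given in the sources used here. There was no culture without stimulus, so a difference from the unstimulated library can come from the stimulus or from the hours in culture, and these cannot be told apart. Of 23135 gene names that lay at a single locus of the merged transcript set, 9515 were assembled in all 4 libraries with at least 1 FPKM in 1 of them, and these were compared. FPKM is a level per length, fragments counted on a transcript scaled to its length and to the mapped fragments of the library.

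Anti-IgM antibodies bind the IgM form of the B cell antigen receptor and start its signalling through calcium, kinases and canonical NF-kappaB, which drives growth and cell cycle entry. BAFF is a survival factor of the TNF family that acts on mature B cells mainly through the BAFF receptor. That receptor leads to degradation of TRAF3, stabilises the kinase NIK and so favours processing of the NF-kappaB precursor p100 to p52, the alternative pathway, while the antigen receptor can supply more p100 for it. The labels state the comparison of single and joint stimulation, and the study's title concerns the NF-kappaB factors that BAFF uses.

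The 4 libraries had between about 18410000 and 28030000 mapped reads as calculated back from the deposited values. The BAFF library (about 18410000) and the library with both stimuli (about 18670000) were the closest in depth, and the anti-IgM library was the deepest. As a check of the label, 7 of 8 B cell markers were assembled in all 4 libraries, with a summed FPKM from 928 (anti-IgM) to 1958 (unstimulated). Cd79a was assembled only with both stimuli among the 4. Of the T cell, neutrophil, erythroid and platelet markers none was assembled in all 4 libraries. Of 6 NK cell markers 1 was, Prf1, at 1.97 FPKM unstimulated, 2.36 with anti-IgM, 1.39 with BAFF and 1.91 with both. Of 8 dendritic cell markers 2 were, and their summed FPKM was 32.3, 72.4, 41.8 and 66.4 in the same order, high with anti-IgM and with both. Most of that sum was Bst2 (25.4, 64.3, 33.5 and 59.9), which the interferon list also holds, while Flt3 was at 6.84, 8.13, 8.32 and 6.43. Of 16 macrophage marker names 7 were, with a summed FPKM of 250.2 in the unstimulated library and of 31.2 (anti-IgM), 33.9 (BAFF) and 30.3 (both) at 8 h, a narrow range across the stimulated libraries. In bulk RNA, fewer cells of a type and less RNA per cell cannot be told apart.

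Values were compared as log2 of FPKM plus 1. A gene's single stimuli were counted as different when they were at least 2-fold apart on this scale and the deposited intervals, read as 2 SD of counting error either way, did not overlap. The library with both stimuli was then placed on a scale from 0 at the BAFF value to 1 at the anti-IgM value. A gene followed anti-IgM above 0.75, followed BAFF below 0.25 and lay between the singles otherwise. A gene was beyond both singles when its combined value was at least 2-fold above the higher or below the lower one without overlapping intervals. Every gene was classed again from the reads over its exons, which were calculated back from FPKM, length and interval for all assembled pieces on either strand. That second measure is not independent of FPKM. It takes in pieces of any length, but it still rests on the pieces that each library's assembly held. Where a locus had several transcripts, their reads were estimated from FPKM and length. No test between conditions was possible with 1 library each, and the intervals cover counting error only.

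The separate stimuli differed for 1230 of the 9515 genes (12.9%), with anti-IgM the higher for 455 (4.78%) and BAFF for 775 (8.15%). With both stimuli, 721 genes (7.58%) followed anti-IgM, 315 (3.31%) lay between, and 184 (1.93%) followed BAFF. A further 118 (1.24%) lay above both singles and 47 (0.494%) below both. The remaining 8130 (85.4%) had singles that were not separated and a combined value not beyond them. These shares of all genes are the background for the class counts of the gene lists. By both measures the asymmetry was larger, with 434 genes (4.56%) following anti-IgM, 56 (0.589%) between, 12 (0.126%) following BAFF, 6 (0.0631%) above and 3 (0.0315%) below.

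**Figure D1:**
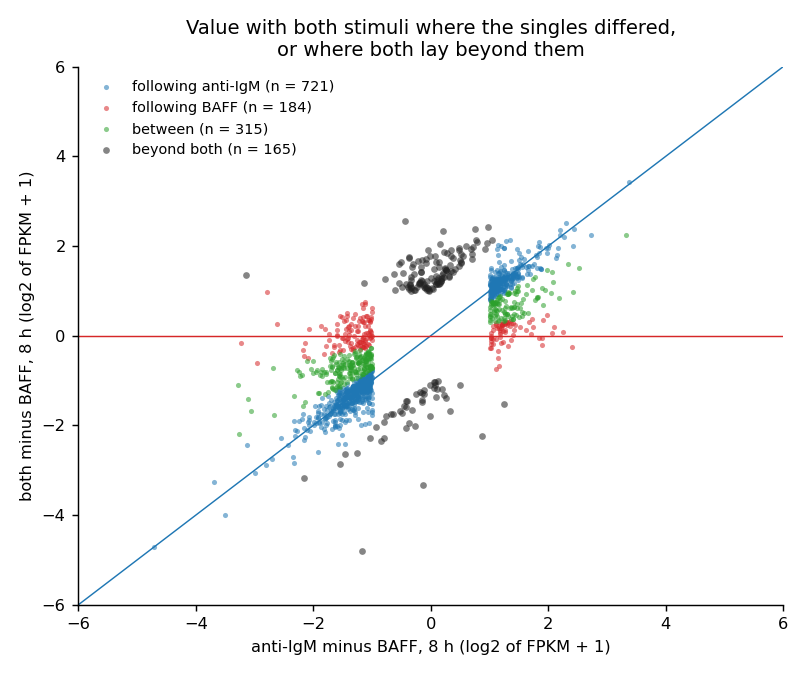
Each point is a gene with a called position at 8 h, plotted as the anti-IgM minus BAFF difference (x axis) against the both minus BAFF difference (y axis), in log2 of FPKM + 1. Genes that followed anti-IgM (721) lie along the blue diagonal, where both equals anti-IgM, and genes that followed BAFF (184) lie along the red line at 0.

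Which library stood apart was also counted without reference to position. The BAFF library was at least 2-fold above the other pair of 8 h libraries for 442 genes (4.65%) and below them for 247 (2.6%). The anti-IgM library stood above for 67 (0.704%) and below for 131 (1.38%), and the library with both stimuli for 118 and 47. From reads over exons the BAFF library stood above for 317 (3.38%) and below for 257 (2.74%) of 9366 genes. The same counts were 3 (0.032%) and 17 (0.182%) for anti-IgM and 7 (0.0747%) and 13 (0.139%) for both. With either measure BAFF alone was thus the library that differed from the other pair most often.

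**Figure D2:**
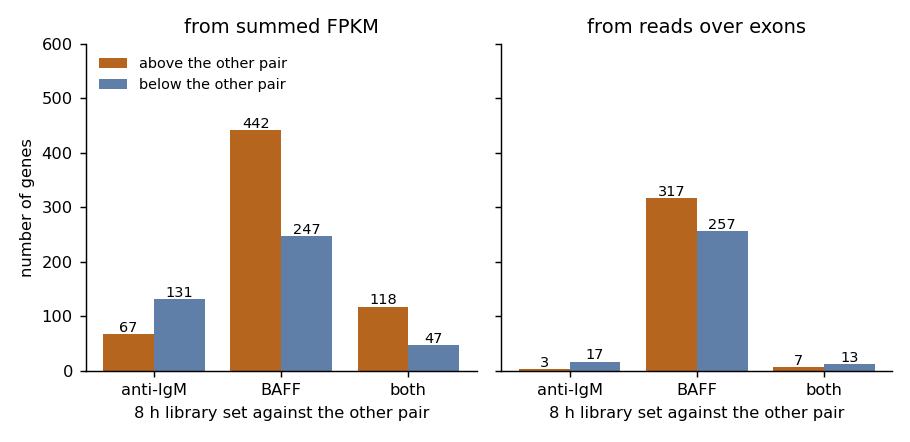
Bars count genes for which 1 of the 3 libraries at 8 h lay at least 2-fold above (brown) or below (blue) the other pair with intervals apart. The left panel uses summed FPKM (9515 genes) and the right panel reads over exons (9366 genes), where the BAFF library has 317 and 257 genes and the library with both stimuli 7 and 13.

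Over 9304 genes assembled in all 7 libraries, the anti-IgM and combined libraries at 8 h had a median absolute difference of 0.14 on the log2 scale, the smallest among the 21 pairs of libraries. For BAFF against both at 8 h it was 0.38, although this pair was closer in depth. From reads over exons (9240 genes) the medians were 0.09 and 0.32, and 52 genes (0.563%) against 734 (7.94%) differed by at least 2-fold. Of all 9515 genes, 6619 (69.6%) were nearer to anti-IgM than to BAFF. At 30 h the same held for 6330 of 9694 genes (65.3%). Directly against the single stimuli, 545 genes (5.73%) differed between both and anti-IgM, 381 higher (4.0%) and 164 lower (1.72%) with both. Of these, 34 (0.357%) were also called from reads over exons, 26 higher (0.273%) and 8 lower (0.0841%). Against BAFF, 1151 differed (12.1%), 510 higher (5.36%) and 641 lower (6.74%), and 559 (5.87%) also from reads over exons, 256 higher (2.69%) and 303 lower (3.18%).

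Transcription factors that respond early to the antigen receptor led the genes that followed anti-IgM from above. Of these, 272 were counted (2.86%), 213 by both measures (2.24%). Egr2, an early growth response factor, was at 24.4 FPKM unstimulated, 67.2 with anti-IgM, 5.597 with BAFF and 70.2 with both. Its anti-IgM and combined values differed by 0.06 on the log2 scale, while BAFF alone lay far below the unstimulated library. Nr4a1, an orphan nuclear receptor used as a reporter of antigen receptor signalling, was at 352, 204, 29.9 and 145 FPKM in the same order, so the combined value lay 0.49 below anti-IgM. The combined value of Nr4a1 was still 2.24 above BAFF. Myc, the growth regulator, was at 143 FPKM unstimulated, 263 with anti-IgM, 64.7 with BAFF and 264 with both. The other leading genes were Rpl22l1, a ribosomal protein paralogue (387, 304, 55.03 and 290.2), the zinc finger gene Hivep3 (2.74, 16.2, 2.49 and 18.8), the GTPase-activating protein gene Tagap (49.6, 66.3, 12.9 and 62.8) and the receptor kinase gene Axl (21.7, 13.8, 2.21 and 15.4). In all of these the BAFF library was the lowest of the 4 and the combined library lay near anti-IgM.

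Among 24 early antigen receptor genes compared, 10 followed anti-IgM, all by both measures, 1 lay between, 0 followed BAFF and 13 were not separated. The 10 were Egr1, Egr2, Egr3, Nr4a1, Nr4a3, Dusp2, Dusp4, Myc, Irf4 and Batf. Irf4, a factor of plasma cell and germinal centre programmes, was at 89.8 FPKM unstimulated, 171 with anti-IgM, 83.0 with BAFF and 155 with both. Batf, its AP-1 partner, was at 13.4, 48.6, 19.9 and 50.4. The median of the list was 0.02 for both minus anti-IgM and 0.76 for both minus BAFF, beside 0.02 and 0.01 over all genes compared. Against the unstimulated library the list medians were negative, at -0.92 with anti-IgM, -1.58 with BAFF and -1.04 with both. Over all genes compared these were 0.06, 0.12 and 0.12. Not every member followed anti-IgM: the AP-1 gene Fos was at 627 FPKM unstimulated and at 3.69, 7.22 and 2.50 at 8 h, low with every stimulus.

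The window upstream of Egr2 is shown because this gene had the largest difference between the single stimuli among the genes that followed anti-IgM from above. RefSeq gives several starts, and the one at the start of the merged gene was taken. The 250 bases before it come from RefSeq (GRCm38.p6, chr10:67537619-67537868, plus strand), 5′ to 3′. Capitals mark a CArG box, the element read by serum response factor, 72 bases upstream of the start.
Egr2: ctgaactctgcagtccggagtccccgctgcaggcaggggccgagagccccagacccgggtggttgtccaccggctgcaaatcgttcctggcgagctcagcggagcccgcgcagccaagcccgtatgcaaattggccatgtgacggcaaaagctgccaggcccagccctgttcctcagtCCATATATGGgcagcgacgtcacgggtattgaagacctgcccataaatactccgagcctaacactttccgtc
A CArG box on either strand was found in 1.63% of 32851 promoter windows of 250 bases before to 50 after a start. Counted by gene over all its starts, it was found for 1.49% of 6970 matched genes compared. The count by gene was 4 of the 160 matched genes (2.50%) that followed anti-IgM from above by both measures. Such a match is a description and not a site.

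**Figure D3:**
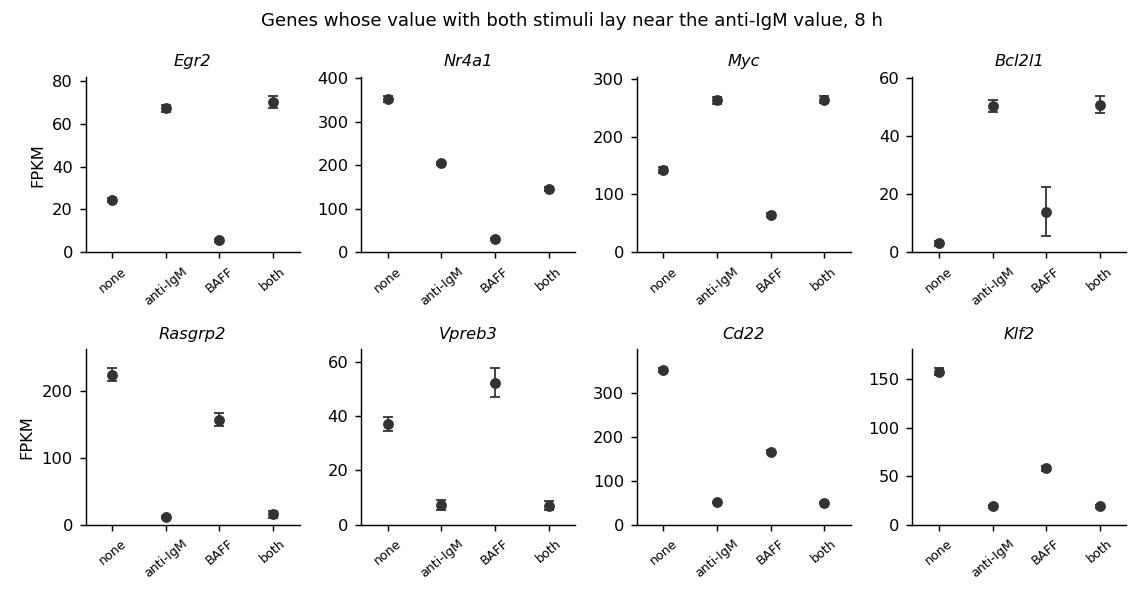
FPKM of 8 genes that followed anti-IgM, in the unstimulated library (none) and at 8 h with anti-IgM, BAFF or both. Points are single libraries and bars the deposited intervals (counting error only). Egr2, Nr4a1, Myc and Bcl2l1 are lower with BAFF than with anti-IgM or both, while Rasgrp2, Vpreb3, Cd22 and Klf2 are higher with BAFF.

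Genes for making ribosomes had the largest median difference of both from BAFF among the lists. Of 33 ribosome biogenesis genes compared, 18 followed anti-IgM and 1 lay above both singles, and 14 were not separated. With both stimuli 20 were counted higher than with BAFF and 0 lower (background 5.36% and 6.74%), against 2 higher and 0 lower than with anti-IgM. The medians were 1.09 and 0.02. Npm1, a nucleolar chaperone, was at 496 FPKM unstimulated, 1519 with anti-IgM, 673 with BAFF and 1448 with both. Nolc1, a nucleolar phosphoprotein, was at 21.4, 102, 39.5 and 97.3, and Polr1b, a subunit of RNA polymerase I, at 7.97, 40.7, 18.0 and 51.0. For these genes BAFF alone lay above the unstimulated library and the combined value lay near anti-IgM.

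Chaperone, amino acid and glycolysis genes had the same order of libraries with smaller medians. Of 30 chaperone genes 8 followed anti-IgM and 1 lay between (medians 0.04 from anti-IgM and 0.83 from BAFF). Hspd1, a mitochondrial chaperonin with an expressed neighbour within 1000 bases, was at 69.999 FPKM unstimulated, 335 with anti-IgM, 123 with BAFF and 328 with both. Of 17 amino acid and one-carbon genes 4 followed anti-IgM (0.06 and 0.83), among them Shmt2, a mitochondrial serine enzyme, at 24.7, 151, 72.8 and 164, and the amino acid transporter gene Slc7a5 at 9.25, 64.1, 30.8 and 64.3. Of 19 glycolysis genes 5 followed anti-IgM and 2 lay between. The glycolysis medians were -0.08 from anti-IgM and 0.40 from BAFF, and Ldha, lactate dehydrogenase, was at 111, 402, 150 and 366. Of 27 sterol and fatty acid genes 3 followed anti-IgM, 1 lay between and 23 were not separated. Their combined values lay above anti-IgM for 22 and above BAFF for 26, beside 5130 and 4845 of all 9515 genes. The medians were 0.08 and 0.47. With both stimuli 0 were counted higher than with anti-IgM and 3 higher than with BAFF (background 4.0% and 5.36%). Idi1, an isoprenoid enzyme, was at 14.3 FPKM unstimulated, 142 with anti-IgM, 78.4 with BAFF and 153 with both.

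The genes that followed anti-IgM from below, where BAFF alone was the higher, numbered 449 (4.72%), and 221 by both measures (2.32%). Rasgrp2, an activator of the GTPase RAP1, was at 225 FPKM unstimulated, 11.3 with anti-IgM, 157 with BAFF and 15.4 with both. Vpreb3, a protein that binds immunoglobulin light chains, was at 37.1, 7.20, 52.2 and 6.94. Their BAFF values lay nearer to the unstimulated library than to the other stimulated ones. Ero1lb, an oxidase of disulfide bond formation, was at 41.1, 9.24, 59.3 and 11.3, with an expressed neighbour within 1000 bases. Ddah2, a dimethylarginine hydrolase (3.89, 2.19, 82.6 and 2.21), Msh5, a MutS homologue of meiosis (4.21, 0.850, 15.3 and 1.98), and Dhx40, a helicase (19.1, 14.7, 124 and 13.9), completed the 6 largest differences. For Ddah2 and Dhx40 the BAFF library at 8 h was the only high one, since BAFF at 30 h had 5.31 and 20.98 FPKM. Ddah2 and Msh5 each have an expressed neighbour within 1000 bases.

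Quiescence and homing genes made up a group of this kind. Of 27 compared, 10 followed anti-IgM, all by both measures and all with BAFF the higher single, and 17 were not separated. The medians were 0.00 for both minus anti-IgM and -0.57 for both minus BAFF. Klf2, a quiescence factor, was at 157.5 FPKM unstimulated, 18.8 with anti-IgM, 58.0 with BAFF and 18.7 with both. S1pr1, the receptor for exit from lymphoid tissue, was at 77.6, 19.0, 58.4 and 13.3, and the cell cycle inhibitor gene Cdkn1b at 65.2, 27.6, 126 and 24.4. In each of these the combined library sat with anti-IgM and the BAFF library well above it. Ccr7, a chemokine receptor for entry into lymph nodes, was different, at 114 FPKM unstimulated and 332, 313 and 397 at 8 h, high with every stimulus.

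B cell identity and coreceptor genes split between the anti-IgM level and the middle. Of 28 compared, 8 followed anti-IgM (6 from below, and Cd5 and Cd72 from above), 5 lay between and 15 were not separated, with medians of 0.06 from anti-IgM and -0.63 from BAFF. Cd22, an inhibitory coreceptor, was at 353 FPKM unstimulated, 50.8 with anti-IgM, 167 with BAFF and 50.1 with both. Ets1, a transcription factor of resting lymphocytes, was at 218.5, 59.97, 222 and 65.5, and the lineage factor gene Pax5 at 100.5, 50.8, 111 and 53.9. The 5 between were Pou2af1, Spib, Fcer2a, Cd37 and Cd79b, and for all but Cd79b this was so by both measures. Cd37, a tetraspanin with an expressed neighbour within 1000 bases, was at 631, 147, 297 and 220.8.

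MHC class II genes had a combined value above the anti-IgM value for 10 of 11 genes, with a median of 0.27. It lay below the BAFF value for 9 of 11, with a median of -0.64. Over all 9515 genes compared, the combined value lay above anti-IgM for 5130 and above BAFF for 4845. Of the 11, 4 followed anti-IgM and 1, H2-Ob, lay between, and none was counted higher or lower with both than with anti-IgM. H2-Ob, a subunit of the peptide-loading inhibitor DO, was at 201 FPKM unstimulated, 55.7 with anti-IgM, 134.6 with BAFF and 96.6 with both. Its partner gene H2-Oa was at 107, 21.01, 64.7 and 21.9, near anti-IgM. H2-DMa, a peptide-loading subunit, was at 150.1, 41.9, 127 and 42.2. Macrophages also carry class II, and the 7 macrophage markers compared had a median of -0.23 for both minus anti-IgM and -0.04 for both minus BAFF. From reads over exons the first of these turned to 0.39, the direction of the class II median, and the second was -0.02. Csf1r, a defining macrophage gene, was at 29.2 FPKM unstimulated, 1.02 with anti-IgM and 1.14 with both and was not assembled with BAFF, while C1qa was at 40.3 unstimulated and not assembled in any library at 8 h. The part of other cells in the class II values was not tested.

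A gene was counted raised or lowered when it differed from the unstimulated library by at least 2-fold with intervals apart. Over all 9515 genes compared, 1188 were counted raised with both stimuli, and the like count of lowered genes is not given here. Of the genes raised by BAFF and not by anti-IgM (323, 3.39%), 75 were also counted raised with both stimuli. Their median was 1.25 with BAFF, 0.40 with anti-IgM and 0.60 with both. For genes raised by anti-IgM and not by BAFF (833, 8.75%), 634 were counted raised with both, with medians of 1.31 (anti-IgM), 0.51 (BAFF) and 1.24 (both). Downward, 452 of 690 genes lowered by anti-IgM alone (7.25%) and 33 of 101 lowered by BAFF alone (1.06%) were counted lowered with both. These comparisons share the unstimulated library, so a chance value there enters all of them. The groups were called by FPKM, and their counts from reads over exons are not given here.

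Of the 323 genes raised by BAFF and not by anti-IgM, by FPKM 88 followed anti-IgM, 42 lay between and 22 followed BAFF. By both measures 11 followed anti-IgM and 7 lay between, and 0 followed BAFF. The 7 were Il9r, Pou2af1, Bcl3, Tmem173, Rhbdf1, Il12a and Kynu, chosen after their values were seen. Neil1, a DNA glycosylase gene among the 11, was at 20.04 FPKM unstimulated, 17.1 with anti-IgM, 48.1 with BAFF and 18.1 with both. Spata13, an exchange factor for small GTPases, was at 13.0, 7.39, 30.9 and 8.06. In both genes the level with the joint stimulus was close to that without BAFF.

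The genes that lay between with BAFF the higher single numbered 202 (2.12%), of which 36 were found by both measures (0.378%). Ltb, which encodes lymphotoxin beta, a TNF family ligand (chr17:35194507-35196305), was at 236 FPKM unstimulated, 61.7 with anti-IgM, 396 with BAFF and 115 with both. The combined value stood at 0.67 of the way from BAFF to anti-IgM, 0.88 above anti-IgM and 1.78 below BAFF on the log2 scale. Il9r, the receptor of interleukin 9, was at 12.9, 7.07, 66.7 and 20.1, and Il12a, the p35 subunit of interleukin 12 and 35, at 16.8, 8.50, 37.2 and 20.3. Pou2af1, the B cell coactivator OCA-B, was at 159 FPKM unstimulated, 116 with anti-IgM, 441 with BAFF and 182 with both. In Ltb, Il9r, Il12a and Pou2af1 no intervals of the 3 stimulated libraries overlapped. Carns1, carnosine synthase (40.5, 3.12, 38.8 and 7.72), and Aes, a Groucho family corepressor (147, 23.2, 108.9 and 58.4), had the widest and the fourth widest gap between singles among named genes of this kind.

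Further members of this group, chosen after their values were seen, are given next. Bcl3, a nuclear cofactor of NF-kappaB p50 and p52, was at 23.6 FPKM unstimulated, 25.7 with anti-IgM, 58.3 with BAFF and 31.7 with both, just inside the limit of the class at 0.75. Csk, the inhibitory kinase of SRC family members, was at 126, 32.5, 106.5 and 65.5. Ifngr1, a chain of the interferon gamma receptor, was at 44.4, 17.3, 45.4 and 23.3, and Tifa, an adaptor of TRAF6, at 20.5, 11.7, 37.4 and 16.7. Fcer2a, which encodes CD23, was at 333, 141, 370.4 and 208, and Spib, an ETS factor of B cells, at 283, 140.4, 306 and 218.5, both with an expressed neighbour within 1000 bases. Bcl6, the germinal centre repressor, was at 33.9, 16.4, 35.0 and 20.3. For Fcer2a, Spib, Bcl6, Csk and Ifngr1 the BAFF level was near the unstimulated one, while for Bcl3, Pou2af1, Il9r and Il12a it was about 2-fold or more above it.

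The windows upstream of Ltb and Spib are shown because both genes lay between the singles and hold the kappaB consensus, the sequence read by NF-kappaB dimers. They are the 250 bases before each start in RefSeq (GRCm38.p6, chr17:35194257-35194506, plus strand, and chr7:44532072-44532321, minus strand), 5′ to 3′ along the gene. Capitals mark matches on either strand, which begin 87 bases upstream in Ltb and 180 and 84 bases upstream in Spib.
Ltb: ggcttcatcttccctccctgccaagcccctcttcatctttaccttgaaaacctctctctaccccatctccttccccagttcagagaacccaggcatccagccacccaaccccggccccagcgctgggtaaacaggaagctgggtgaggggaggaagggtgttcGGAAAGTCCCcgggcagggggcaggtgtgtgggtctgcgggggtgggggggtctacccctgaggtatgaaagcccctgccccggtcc
Spib: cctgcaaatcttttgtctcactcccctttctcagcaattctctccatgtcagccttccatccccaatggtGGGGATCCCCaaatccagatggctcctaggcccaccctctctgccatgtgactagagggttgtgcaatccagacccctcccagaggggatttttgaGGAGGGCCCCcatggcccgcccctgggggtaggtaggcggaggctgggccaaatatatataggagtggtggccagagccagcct
In windows of 250 bases before to 50 after a start, a kappaB match was found for 7 of the 25 matched genes that lay between with BAFF higher by both measures (28.0%). The 7 were Bcl3, Gm20605, Lpcat1, Ltb, Spib, Ssb and Tifa. The share was 12.4% of 6970 matched genes compared and 8.46% of all 32851 windows, and it was 14.4% and 17.4% for genes that followed anti-IgM from above (23 of 160) and from below (29 of 167). Of the other motifs searched, AP-1 (TGACTCA or TGAGTCA) was found for 2 of the 25 and EGR (GCGGGGGCG or GCGTGGGCG) for 1, beside 3.80% and 7.70% of genes compared. Overlaps between matches of different motifs were not counted, and a match does not show that a factor binds.

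With anti-IgM the higher single, 113 genes lay between (1.19%) and 20 of them by both measures (0.21%). Ccl4, the chemokine MIP-1 beta, was at 36.9 FPKM unstimulated, 79.8 with anti-IgM, 15.0 with BAFF and 47.4 with both. Bcl2l11, which encodes the death-promoting BIM, was at 9.81, 52.0, 21.9 and 39.2. Pcna, the sliding clamp of DNA replication, was at 78.2, 171, 83.1 and 117. In Ccl4, Bcl2l11 and Pcna the combined value lay below anti-IgM by 0.74, 0.40 and 0.54 on the log2 scale, with intervals apart. The other genes named by size were St6galnac4, a sialyltransferase (10.5, 52.0, 16.8 and 30.1), the interferon-inducible GTPase gene Ifi47 (29.1, 66.4, 23.0 and 46.9), Slc48a1, a heme transporter (17.8, 16.3, 5.88 and 12.2), Zfp52, a zinc finger gene (11.2, 38.9, 15.1 and 29.8), and Snx14, a sorting nexin (12.8, 24.0, 9.37 and 13.6). St6galnac4 and Slc48a1 have an expressed neighbour within 1000 bases.

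**Figure D4:**
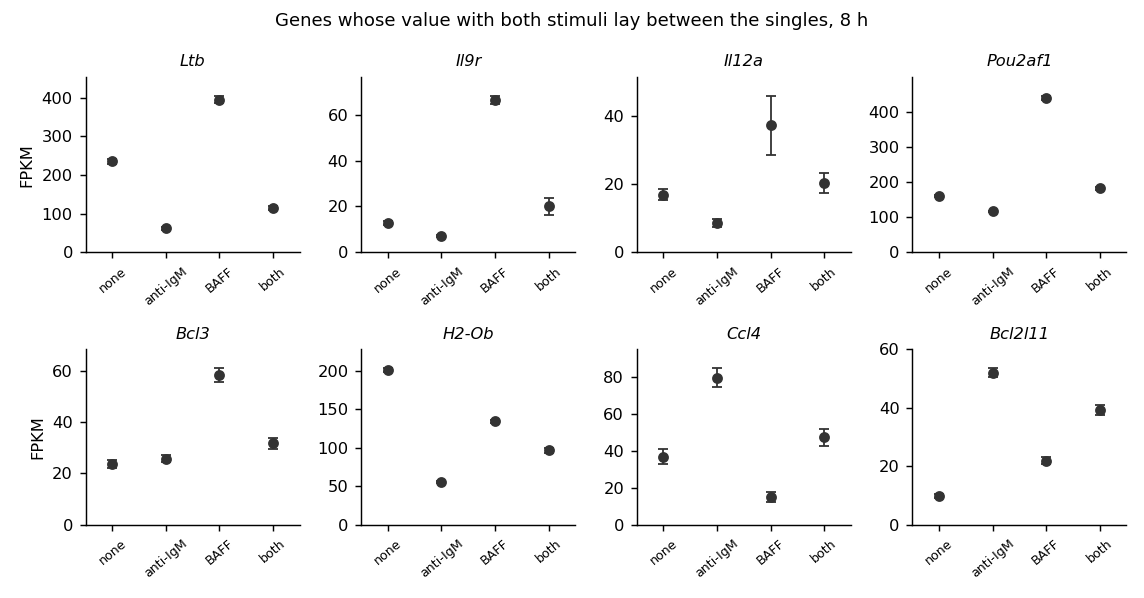
FPKM of 8 genes whose combined value lay between the singles, in the unstimulated library (none) and at 8 h with anti-IgM, BAFF or both. Points are single libraries and bars the deposited intervals (counting error only). BAFF is the highest of the 3 stimulated libraries in Ltb, Il9r, Il12a, Pou2af1, Bcl3 and H2-Ob, and anti-IgM in Ccl4 and Bcl2l11.

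For NF-kappaB subunits the stimuli did not separate at 2-fold. Rel, the c-Rel subunit of the canonical pathway, was at 39.2 FPKM unstimulated, 140.0 with anti-IgM, 85.6 with BAFF and 143 with both. Nfkb1, the p105 precursor of p50, was at 81.6, 189.6, 113 and 168. For both subunits the combined value lay near anti-IgM and the BAFF value in the middle. Nfkb2, the p100 precursor of p52, was at 75.3 FPKM unstimulated, 147 with anti-IgM, 184 with BAFF and 198 with both, where the combined library was the highest by 0.11 over BAFF. Nfkbia, the inhibitor IkB alpha, had the same order, at 112, 158, 195 and 218. These steps past the larger single were small, though the intervals of the 3 stimulated libraries did not overlap for either gene. Relb, the partner of p52, was at 41.1, 63.2, 101 and 63.1 FPKM, but reads over exons gave 57.2, 50.7 and 57.8 for anti-IgM, BAFF and both, so its high BAFF value was not seen by the second measure. Nfkb2 has an expressed neighbour within 1000 bases.

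Of the 23 genes of the NF-kappaB list that were compared, 3 followed anti-IgM, 1 lay between (Bcl3) and 19 were not separated. The same classes held 7.58%, 3.31% and 85.4% of all genes compared. The list medians were 0.05 for both minus anti-IgM and -0.08 for both minus BAFF, beside 0.02 and 0.01 for all genes. Nfkbiz, an atypical nuclear IkB protein, followed anti-IgM at 32.2 FPKM unstimulated, 56.4 with anti-IgM, 21.3 with BAFF and 51.4 with both. Tnip2 and the deubiquitinase gene Cyld followed it by FPKM only. Map3k14, which encodes NIK, was at 22.3, 15.2, 27.6 and 16.4, Traf3, an adaptor that holds NIK low, at 20.6, 15.2, 21.9 and 16.6, and Birc3, a ubiquitin ligase of the same complex, at 51.9, 44.6, 82.6 and 52.2. None of these 3 differences reached 2-fold. Tnfaip3, which encodes the inhibitor A20, was at 26.2, 54.3, 36.4 and 57.3, near anti-IgM. Rela was at 47.3, 44.4, 57.9 and 55.2. The remaining members, Nfkbib, Nfkbid, Traf1, Traf2, Birc2, Chuk, Ikbkb, Ikbkg and Tnip1, had combined values within 0.74 of each single on the log2 scale. Nfkbie was assembled only in the BAFF library among the 4 and was not compared.

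Among BAFF receptor and TNF family genes, 10 of 18 were compared, of which 1 lay between (Ltb), 1 followed BAFF and 8 were not separated. Tnfrsf13c, the BAFF receptor gene, was at 83.8 FPKM unstimulated, 96.7 with anti-IgM, 48.8 with BAFF and 108 with both. It was counted higher with both than with BAFF, while the singles were just under 2-fold apart. Tnfrsf13b, which encodes the related receptor TACI, was at 123, 66.8, 76.6 and 74.8, low with every stimulus. Cd40 was at 57.9, 33.3, 46.8 and 37.4, Fas at 3.28, 4.93, 6.65 and 7.40, Tnf at 9.26, 7.32, 5.23 and 7.96, and Lta at 19.3, 4.76, 9.61 and 3.17. Tnfsf9 and Tnfrsf18 had combined values between -0.29 and 0.16 of each single on the log2 scale. Tnfrsf1b followed BAFF by FPKM (11.1, 38.0, 15.8 and 18.8), but reads over exons gave 15.8, 15.3 and 17.9 for anti-IgM, BAFF and both. Tnfrsf17, Tnfsf13b, Tnfrsf9, Tnfrsf4, Cd70, Cd27, Tnfsf8 and Tnfsf14 were not assembled in all 4 libraries.

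BCL2 family members that protect cells differed in direction, and the combined library was near the anti-IgM level of both Bcl2l1 and Bcl2. Bcl2l1, which encodes BCL-XL, was at 3.005 FPKM unstimulated, 50.3 with anti-IgM, 13.9 with BAFF and 50.7 with both. Bcl2 was at 29.6, 6.26, 14.8 and 6.74. Both followed anti-IgM by both measures. Of 16 genes of the list compared, 2 followed anti-IgM, 2 lay between (Bcl2l11 and, by FPKM only, Bad) and 12 were not separated. The medians were 0.13 and 0.43 from anti-IgM and BAFF. Mcl1, another protective member, was at 253 FPKM unstimulated, 171, 167 and 133, and reads over exons ordered BAFF (96.5) above both (64.3) and anti-IgM (62.7). Pim2, a survival kinase gene with an expressed neighbour within 1000 bases, was at 19.5, 52.2, 99.1 and 58.8, its combined value nearer anti-IgM. Pim1 and Pim3 were at 72.8 and 39.8 with anti-IgM, 78.5 and 25.2 with BAFF, and 88.3 and 42.0 with both. Bax, a pore-forming death protein, was at 53.1, 94.1, 84.2 and 148. The other members compared, Bcl2l2, Bcl2a1b, Bbc3, Pmaip1, Bid, Bak1 and Bmf, were not separated, while Bcl2a1a, Bcl2a1c, Bcl2a1d, Bik and Hrk were not assembled in all 4 libraries.

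Few genes followed BAFF. Of the 184 by FPKM, 68 (0.715%) had anti-IgM the higher and 116 (1.22%) had BAFF the higher, and by both measures these counts were 1 (0.0105%) and 11 (0.116%). In most of the 11 the anti-IgM library was low by itself while the unstimulated, BAFF and combined values were alike. Psenen, a subunit of gamma-secretase, was at 121 FPKM unstimulated, 17.6 with anti-IgM, 113 with BAFF and 136 with both, and Ndufs7, a subunit of complex I, at 42.6, 12.8, 49.6 and 58.0. At 30 h the anti-IgM library had 92.1 and 37.8 FPKM for them, no longer far below the others. Sla2, a Src-like adaptor, was at 20.3, 3.23, 38.9 and 34.9, Mrpl14, a mitochondrial ribosomal protein, at 15.8, 2.97, 29.8 and 19.0, Rpl7a, a ribosomal protein, at 837, 192, 812 and 897, and Fam195b at 38.9, 15.1, 44.0 and 55.6. Sla2, Mrpl14, Psenen and Rpl7a have an expressed neighbour within 1000 bases. The gene with anti-IgM higher was Trim30a, an inhibitor of inflammatory signalling, at 99.0, 159.0, 69.7 and 74.3.

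Genes beyond both singles were also few by both measures. Fbl, which encodes the nucleolar methyltransferase fibrillarin, was at 79.8 FPKM unstimulated, 106 with anti-IgM, 53.3 with BAFF and 292 with both, and Sf3b5, a splicing factor subunit, at 50.4, 22.7, 29.5 and 102. The others above were Alyref, an mRNA export factor (12.7, 10.03, 11.4 and 32.3), Pih1d1, a cochaperone subunit (12.6, 19.96, 15.2 and 53.1), G6pdx, the first enzyme of the pentose phosphate pathway (15.1, 12.4, 10.1 and 28.9), and the predicted gene Gm2382. All but Sf3b5 and Gm2382 have an expressed neighbour within 1000 bases. At 30 h none of the 6 was counted above both singles, and for Fbl the values were 113 (anti-IgM), 77.6 (BAFF) and 98.4 (both).

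Genes below both singles included Gemin7, a subunit of the SMN complex (46.4, 50.6, 55.4 and 4.58), and Atp5g2, an ATP synthase subunit (58.2, 415, 227 and 47.1). Gemin7 was again below both singles at 30 h, at 53.7, 29.0 and 9.85 FPKM. From reads over exons at 8 h Gemin7 had 40.6, 43.5 and 19.7 for anti-IgM, BAFF and both, a smaller gap than by FPKM. Tyms, thymidylate synthase, shows what the second measure removed: it was at 4.42, 78.5, 179 and 5.49 FPKM, but reads over exons at 8 h were 5.50, 7.79 and 5.25. Rb1 was above both singles by FPKM (10.6, 12.0 and 36.6) and not by reads over exons (10.3, 11.7 and 9.91).

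The combined stimulus was next set against the single with the larger response. Over 1361 genes raised by either single or both, the median of both minus the higher single was -0.11. Of these, 8 exceeded the higher single by at least 1 on the log2 scale and 186 fell short of it by as much. Of all 9515 genes, 119 exceeded it and 763 fell short. Over 1034 lowered genes the median of both minus the lower single was 0.16, with 4 past it and 141 short of it. The like counts of all genes against the lower single are not given here. All 9515 genes had -0.12 and 0.18 from the higher and lower single, so these pooled medians were near the background. Since the larger of the singles is picked gene by gene, a chance high value can enter it, and these medians lean toward falling short. From reads over exons they were -0.04 and 0.00. The pooled medians joined unlike groups. By FPKM, genes raised by anti-IgM alone had -0.04, with 52 of 833 short by at least 1. Genes raised by BAFF alone had -0.76, with 123 of 323 short. For lowered genes the medians were 0.11 (by anti-IgM alone) and 0.58 (by BAFF alone). These groups were called by FPKM only. Between BAFF at 8 h and the unstimulated library, 834 of 9304 genes differed by at least 2-fold by FPKM, and 425 of 9240 from reads over exons. For anti-IgM at 8 h these counts were 1941 and 1764, so fewer of the BAFF differences were seen by the second measure. For the 205 genes raised by both singles (2.15%), the combined value was 1.67 above the unstimulated library at the median, beside 1.69 for anti-IgM and 1.31 for BAFF. That was 1.48 less than the sum of the single differences. For the 243 lowered by both singles (2.55%) the medians were -1.69 for both, -1.77 for anti-IgM and -1.36 for BAFF.

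**Figure D5:**
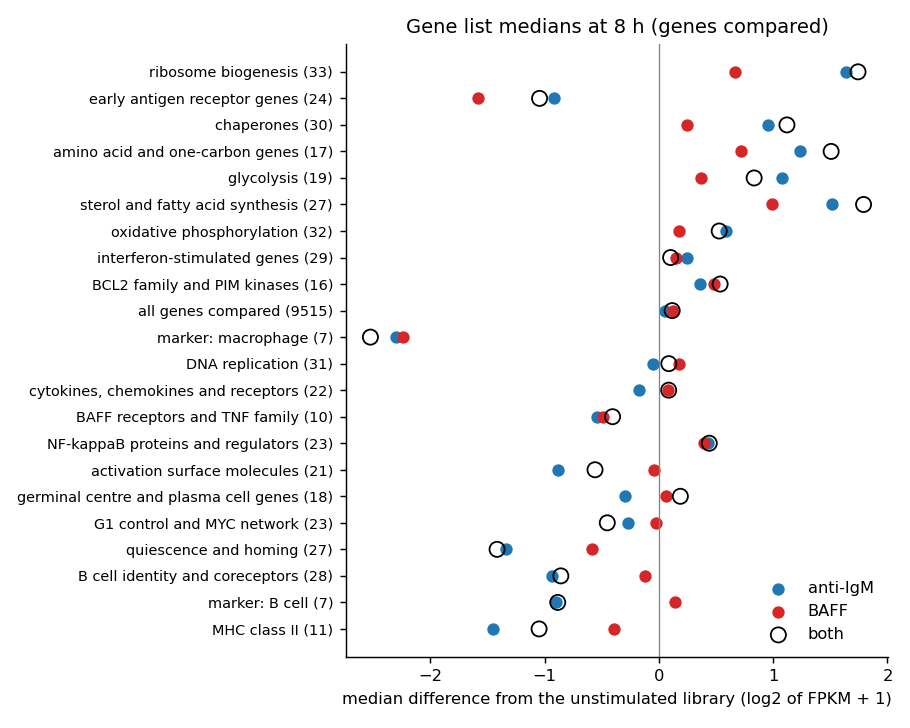
Median difference from the unstimulated library in log2 of FPKM + 1 (x axis) for each gene list with 7 or more genes compared, at 8 h with anti-IgM (blue), BAFF (red) or both (open circles). Lists are ordered by the median difference between the single stimuli, and the row for all 9515 genes gives the background. Ribosome biogenesis and quiescence genes show the combined value near anti-IgM, and MHC class II shows it between the singles.

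The 30 h libraries were separate samples, apart from the shared unstimulated one, which the classes do not use. Of the 434 genes that followed anti-IgM by both measures at 8 h, 429 were compared at 30 h, and 390 had the single stimuli in the same order. The share of all genes that kept this order is not given here, so the 390 has no background. With both stimuli 357 were nearer to anti-IgM, beside 65.3% of all genes compared at 30 h. As a class, 62 followed anti-IgM again (background 3.82%), 34 lay between and 325 were not separated (background 90.6%). The singles differed in the same direction for 98. Over all 9694 genes compared at 30 h the singles differed for 785 (8.1%), and 370 genes followed anti-IgM and 229 lay between. Egr2 was at 82.4 FPKM with anti-IgM, 8.81 with BAFF and 60.3 with both at 30 h, and Vpreb3 at 12.8, 84.1 and 16.7. Myc was lower at 30 h with every stimulus, at 61.2, 29.8 and 59.9. Rpl22l1 did not keep its order, at 552, 378 and 130.1.

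Of the 56 genes between the singles by both measures, 54 were compared at 30 h and 45 had the same order of singles, again without a background. The combined value lay strictly inside the singles for 36, beside 39.9% of all genes. The singles differed in the same direction for 16 of the 54, and 37 were not separated, beside 90.6% of all genes. The full rule for between was met again by 11, beside 2.36%. These 11 were Il9r, Ltb, Il12a, Pou2af1, Lpcat1, Rhbdf1, Kynu, Evi2b, Fcer2a, Bcl2l11 and Ccl4. At 30 h Ltb was at 36.1 FPKM with anti-IgM, 480 with BAFF and 149 with both, Il9r at 4.90, 64.2 and 31.3, and Pou2af1 at 120, 298 and 223. Bcl2l11 was at 51.7, 15.6 and 31.2, so that BAFF beside anti-IgM again went with a lower value than anti-IgM alone. H2-Ob and Bcl6 lay near anti-IgM at 30 h, at 48.1, 121 and 51.8 and at 7.70, 29.1 and 8.14, and Bcl3 was at 24.0, 30.4 and 26.9. Of the 12 genes that followed BAFF at 8 h by both measures, 1 did so at 30 h (background 1.88%), which was Sla2, with the order of the singles turned round (56.8, 21.5 and 22.3).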

How the data were processed

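RNA was measured in 7 libraries of mouse B cells, 1 per condition. Per the submitters' processing notes, the authors used CASAVA 1.8.2, TopHat2 2.0.5, Bowtie2 2.0.0.7 and Cufflinks 2.0.2 with mm10. The deposited values are FPKM of transcripts assembled in each library separately, with an interval, and a merged set without values. Transcripts were named by same-strand exon overlap with the merged set, and FPKM was summed per gene over transcripts of 300 bases or more, since shorter pieces held 66.6% to 74.4% of summed FPKM. Reads per transcript were recovered as whole numbers, within 2%, for 98.5% to 98.9% of single-transcript pieces, and from them mapped reads and reads over exons. Intervals cover counting error only, and no test was possible.

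Named genes were the 6 largest differences of each class at 5 FPKM or more, seen by both measures and without predicted genes, plus members of 19 gene lists; 8 marker lists served as checks. Some genes that the rule names are not reported here. The members and lists were chosen with earlier results of these data known. The class rules were tried on simulated data that held counting noise only, which cannot show differences in assembly between libraries. Alternatives covered pseudocount, fold, scaling, filters, transcript choice, unassembled genes and class limits, and the demand for both measures and the neighbour rule were chosen after seeing the data. Calculations ran in pandas 2.3.3 and numpy 2.4.6 under Python 3.11.15, with plots from matplotlib 3.10.9.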

Additional observations from a re-analysis of the deposited data

Results flagged for a closer look

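G6pdx lay 1.16 above the higher single stimulus at 8 h on the log2 scale. At 30 h the combined library was the lowest, at 10.5 FPKM beside 18.6 (anti-IgM) and 20.98 (BAFF), with differences of -0.77 from anti-IgM and -0.93 from BAFF. The 8 h difference passed the 2-fold limit and those at 30 h did not, so G6pdx was not counted below both singles there. The difference between the times was not tested, and the gene has an expressed neighbour within 1000 bases.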

How the results depend on the processing

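No paired analysis was possible because each group was 1 library, and for the same reason no replicate could be left out. Of 104 values of the class counts and the medians against the larger single, 63 stayed near the main value and 41 moved, and none changed sign except the lowered median from reads over exons (-0.00029, the raised one -0.038). Counts are given as above, below, following anti-IgM, following BAFF and between, beside 118, 47, 721, 184 and 315. A pseudocount of 5 gave 55, 10, 396, 65 and 157, with medians of -0.080 (raised) and 0.077 (lowered), and a pseudocount of 0.1 gave 81 below and a lowered median of 0.20. A 1.5-fold limit gave 373, 190, 1809, 397 and 668. Reads over exons gave 7 above, 13 below, 19 following BAFF and 87 between, of 9366 genes. The demand for both measures, added after seeing the data, gave 6, 3, 434, 12 and 56. Genes not assembled set to 0 gave 251, 247, 1174 and 471 following BAFF, of 11361 genes, with medians of -0.20 and 0. The most abundant transcript gave 67 above, 97 following BAFF, and medians of -0.076 and 0.19. Genes without an expressed neighbour, also added later, gave 70 above and 122 following BAFF, of 6445 genes compared and not 9515. The smaller number compared lowers such counts by itself. Narrower limits for the middle of the scale gave 208 between. Median ratio scaling gave medians of -0.16 and 0.11, and upper quartile scaling -0.15 for raised genes. Following anti-IgM was the most frequent of the 5 classes in every setting run, while the order of the others changed in some. Causes were not tested. Of 42 gene list medians, 5 changed sign with median ratio scaling and 9 with reads over exons. These were no farther from 0 than 0.10, except the macrophage markers (both minus anti-IgM), which went from -0.23 to 0.39 with reads over exons. Of the named genes 3 of 39 moved with scaling and 22 of 39 with reads over exons, none of them in sign. The named genes had been picked for having the same class by both measures. Their unchanged sign with reads over exons was thus largely set by that choice and is not a separate check. Depth limits genes of low FPKM, whose intervals are wide.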

Other observations

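Lists outside growth, identity and NF-kappaB showed mixed differences. Of 22 cytokine and cytokine receptor genes compared, 6 followed anti-IgM and 5 lay between, beside 7.58% and 3.31% of all genes. Il2ra, a chain of the interleukin 2 receptor, was at 6.73 FPKM unstimulated, 43.2 with anti-IgM, 14.6 with BAFF and 37.6 with both, and Stat5a, a factor downstream of such receptors, at 12.5, 55.2, 23.1 and 53.3. Il10ra, a receptor chain of interleukin 10, was at 59.8, 17.9, 44.8 and 16.3. Of 21 activation surface genes 6 followed anti-IgM and 2 lay between by FPKM only. Cd83, an activation marker, was at 130.2, 422, 173 and 414, and Icosl, a costimulatory ligand, at 117, 25.4, 80.4 and 21.2.

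Of 32 oxidative phosphorylation genes 29 were not separated, and of 31 DNA replication genes 26 were not separated, beside 85.4% of all genes. Interferon-stimulated genes had 24 of 29 not separated, also near that share. Among them Isg15, a ubiquitin-like modifier, followed anti-IgM at 11.2, 45.2, 11.8 and 49.4. Germinal centre and plasma cell genes had 5 of 18 following anti-IgM, beside 7.58% of all genes. The 5 included Ahr, the aryl hydrocarbon receptor gene, at 4.01, 30.9, 5.95 and 31.9, and Ung, a uracil glycosylase gene, at 4.63, 18.4, 6.32 and 18.0. Among 23 genes of G1 control and the MYC network 3 followed anti-IgM, 3 lay between, 1 lay above both singles and 16 were not separated, beside 7.58%, 3.31%, 1.24% and 85.4% of all genes. The first 3 included the kinase gene Cdk4 at 58.0, 209, 82.4 and 206, which has an expressed neighbour within 1000 bases.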
